A study of Mus musculus with 12 samples.

Results

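The expression of 10 genes of the lung endothelium was followed across all 12 lung libraries of the series: the peptide ligand gene Apln, the receptor genes Aplnr, Ednrb and Kdr, the enzyme genes Car4 and Nos3, the capillary surface genes Gpihbp1 and Plvap, the tight junction gene Cldn5 and the secreted factor gene Vwf. They were chosen by name as genes that mark subsets of lung endothelial cells, and each was found by its symbol, so that the 10 genes were 10 of the 17920 genes listed in every library. All 10 passed the filter on low values and were among the 13735 genes tested. The libraries came from polyadenylated RNA of whole lung tissue of male BALB/c mice aged 6 to 8 weeks, 1 library per mouse. Of 24 mice in 4 groups of 6, lungs of 3 mice per group were sequenced at 14 days. The groups were a control with no agent named, lipopolysaccharide (LPS, the endotoxin of Gram-negative bacteria, given as 50 µL of 1 µg/µL), the bovine milk glycoprotein lactoferrin, which binds iron (bLF, 200 mg/kg per day), and both agents together (LPS+bLF). The route of LPS, the day it was given and the route of bLF are not stated in the labels, and the title of the study names LPS-induced acute lung injury as its model.

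The alveolar capillary bed is built from aerocytes, large flat cells specialised for gas exchange, and from general capillary cells, which act as their progenitors and carry vasomotor and lipid-handling functions. Aerocytes are known for Car4, Ednrb and Apln with high Kdr, while general capillary cells are known for Aplnr, Gpihbp1 and Plvap, so that the apelin ligand and its receptor mark neighbouring cells. Vwf is more abundant in arteries, veins and larger vessels, and Cldn5 and Nos3 are expressed widely in endothelium. LPS acts on endothelium directly through its receptor complex and indirectly through cytokines of other cells.

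Promoter sequences were matched by symbol in the RefSeq table of GRCm38.p6 (mm10), which held 5 of the 10 genes: Apln, Car4, Cldn5, Ednrb and Kdr. The 4 windows below are the 250 bases upstream of the listed start, 5′ to 3′ on the strand of the gene. Ednrb and Car4 are shown as the aerocyte genes whose levels went together across libraries, and Apln and Cldn5 as genes that lay at opposite ends in one library described below. The Ednrb window is chr14:103843702-103843951 on the minus strand, and it lies inside the gene as annotated because a longer transcript starts farther upstream. The Car4 window is chr11:84957504-84957753 on the plus strand, the Apln window is chrX:48034854-48035103 on the minus strand, and the Cldn5 window is chr16:18776597-18776846 on the plus strand. Capitals mark GGAA and its reverse complement TTCC, the core bound by ETS factors, which act in all endothelial cells.
Ednrb: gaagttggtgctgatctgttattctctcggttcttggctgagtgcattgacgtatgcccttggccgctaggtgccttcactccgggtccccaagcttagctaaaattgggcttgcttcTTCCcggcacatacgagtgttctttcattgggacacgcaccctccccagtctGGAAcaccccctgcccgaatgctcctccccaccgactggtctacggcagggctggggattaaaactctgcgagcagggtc
Car4: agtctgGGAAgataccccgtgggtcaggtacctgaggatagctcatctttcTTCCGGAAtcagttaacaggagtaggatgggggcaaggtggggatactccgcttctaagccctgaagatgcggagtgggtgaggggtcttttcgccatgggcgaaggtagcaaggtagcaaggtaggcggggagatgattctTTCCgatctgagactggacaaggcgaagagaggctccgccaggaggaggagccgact
Apln: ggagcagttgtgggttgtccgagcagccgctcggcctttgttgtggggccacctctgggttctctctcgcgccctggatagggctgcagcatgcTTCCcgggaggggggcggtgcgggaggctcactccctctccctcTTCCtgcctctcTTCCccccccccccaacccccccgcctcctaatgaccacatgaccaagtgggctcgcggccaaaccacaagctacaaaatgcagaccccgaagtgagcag
Cldn5: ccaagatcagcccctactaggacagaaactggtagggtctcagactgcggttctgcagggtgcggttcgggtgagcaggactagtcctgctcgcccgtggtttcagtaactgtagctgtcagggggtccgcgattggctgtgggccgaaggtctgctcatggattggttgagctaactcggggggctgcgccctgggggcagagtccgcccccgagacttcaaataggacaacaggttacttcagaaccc

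The ETS core was found 2 times in the Ednrb window, 4 times in the Car4 window, where a TTCC and a GGAA adjoin, and 3 times in the Apln window. It was not found in the Cldn5 window. The Kdr window held 4. Because the core is short, 93.4% of 32851 windows of this length in the table held it on either strand. The KLF-type box CACCC, or its complement GGGTG, occurred in 2 copies in Ednrb and Cldn5, in 1 copy in Car4 and Kdr and in 0 copies in Apln, against a match in 52.0% of all windows. ACAAT, searched for SOX factors, and TATAAA were in 0 of the 5 windows on either strand, with matches in 27.7% and 12.4% of all windows. These matches describe letters only and were not tested as binding sites.

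Total counts lay between 16714327 and 17820645 per library, so that 3 counts, taken as the limit of detection, came to 0.168 to 0.179 CPM, the count scaled to library size. All 30 genes of a pan-endothelial list (Pecam1, Cdh5, Tie1 and others) reached 1 FPKM in every library, FPKM being a fragment count scaled by both library size and gene length, and Pecam1 lay between 152 and 237 FPKM, so endothelial RNA was present in every library. One library stood apart. By FPKM, LPS replicate 1 was the lowest of the 12 in 43.6% and the highest in 18.8% of tested genes. It listed 3067 genes at 0 against 1499 to 1963 in the others, and values that rest on it are given without it as well. Control replicate 1, bLF replicate 1 and LPS+bLF replicate 2 were the highest in fat and in heart muscle genes. Heart muscle genes summed to 1209, 5914 and 5049 FPKM there, and to between 75 in LPS replicate 1 and 739 in control replicate 2 among the others. LPS+bLF replicate 3 was high in skeletal muscle genes (summed level 3287 FPKM) and squamous epithelium genes (822 FPKM). In edgeR's quasi-likelihood test with Benjamini-Hochberg adjustment, no gene was called in any of the 8 comparisons at an adjusted p under 0.05, so the share of the 13735 genes called was 0% in each. The comparisons were LPS averaged over bLF (6 against 6 libraries), bLF averaged over LPS (6 against 6), their interaction, LPS+bLF versus bLF, LPS versus control, bLF versus control, the pair of agents versus control, and LPS+bLF versus LPS. None of the 10 endothelial genes was therefore called. In the order just given, 919, 651, 384, 366, 980, 189, 660 and 950 genes had an unadjusted p under 0.05, and DESeq2 called 138, 2, 1, 2, 138, 1, 12 and 7. With LPS replicate 1 left out, edgeR called 25 genes for LPS versus control, 44 for LPS averaged over bLF, 2 for LPS+bLF versus LPS and 0 in the other 5 comparisons, and none of the 10 endothelial genes was among them. Limma on log2(FPKM + 1) called 2 genes for LPS versus control, 3 for LPS averaged over bLF and 0 in the other 6 comparisons.

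Ednrb, the B-type receptor for endothelins, gave the clearest separation by treatment. Its levels were 16, 16.6 and 18.2 FPKM in the control libraries, 9.49, 12.6 and 11.2 FPKM with LPS, 13.9, 14.0 and 17.3 FPKM with bLF, and 12.7, 11.5 and 11.3 FPKM with LPS+bLF. Every one of the 6 libraries from LPS-treated mice lay below every one of the 6 libraries from mice without LPS, and the same held on the scale of TMM-normalised CPM. Group means were 16.9 ± 1.12 FPKM in control and 11.1 ± 1.55 with LPS (SD, n = 3 each), and 15.1 ± 1.95 with bLF and 11.8 ± 0.754 with LPS+bLF. Against control the log2 difference was −0.61 ± 0.15 (SE) with LPS, with an unadjusted p of 0.00186 and an adjusted p of 0.291 in edgeR's quasi-likelihood test, rank 88 of 13735 by p. In lung with bLF the LPS difference was −0.32 ± 0.15 (unadjusted p = 0.0545), and averaged over both it was −0.47 ± 0.11 (unadjusted p = 0.00107, adjusted p = 0.224). In bulk tissue, fewer cells that express a gene and less of its RNA per cell cannot be told apart.

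The separation of Ednrb did not rest on the library that stood apart. Without LPS replicate 1 the LPS difference was −0.59 ± 0.16 (adjusted p = 0.317), and over all 6 libraries left out in turn it ran from −0.69 to −0.53. The test decided the call, since DESeq2 gave −0.59 with an adjusted p of 0.0254 for LPS versus control and −0.45 with an adjusted p of 0.00927 for LPS averaged over bLF. Of 13735 genes, 15 (0.109%) were lower in all 6 libraries with LPS than in all 6 without. That share is close to the one expected if the libraries were ordered at random. Ednrb was the 1 of the 10 endothelial genes in that order, and it was chosen for description after its values were seen. Scaling the libraries on the pan-endothelial genes instead of all genes moved the averaged difference to −0.24 ± 0.11 and the LPS versus control difference to −0.43 ± 0.16. The LPS+bLF versus bLF difference became −0.04 ± 0.16 under that scaling. Relative to the pan-endothelial genes, no LPS difference was thus detectable in lung with bLF. The median of all tested genes, however, went from 0.01 to 0.28 in that comparison. Such scaling moves all genes by a similar amount, so it cannot show whether Ednrb differs from that median. bLF given with LPS left no detectable difference from LPS alone (0.09 ± 0.15, unadjusted p = 0.572), and bLF alone lay at −0.20 ± 0.15 against control. The interaction was 0.29 ± 0.21.

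Ednrb is expressed in vascular smooth muscle and pericytes as well as in endothelium, so a list of 11 genes of those cells was set beside it. For LPS versus control 8 were lower and 3 higher, with a median of −0.25 against −0.04 over all genes tested. For LPS+bLF versus bLF 3 were lower and 8 higher (median 0.11), and for LPS averaged over bLF 6 were lower and 5 higher (median −0.04). None was called. Without LPS replicate 1, 11 of 11 were lower for LPS versus control (median −0.67) and 9 for LPS averaged over bLF (median −0.26). Their summed level was 1106 to 2027 FPKM in control and 897.5 to 1454 with LPS. Myh11, the smooth muscle myosin heavy chain and the gene of the list with the lowest p for LPS versus control, was 30.2 ± 8.08 FPKM in control, 12.7 ± 2.33 with LPS, 19.5 ± 2.31 with bLF and 16.3 ± 2.20 with LPS+bLF (SD, n = 3 each). Of 10 macrophage genes, 10 were higher for LPS averaged over bLF, with a median log2 difference of 0.85, and none was called with all libraries. With LPS replicate 1 left out, the count was again 10, the median was 0.77 and 1 gene, Ms4a7, was called for LPS versus control. The part of either cell type in the Ednrb result was not tested.

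Other genes of the endothelin and apelin systems were read from a list of 11, of which 7 passed the filter on low values and none was called. For LPS versus control 3 were higher and 4 lower, with a median of −0.05, and without LPS replicate 1 the counts were 2 and 5, with a median of −0.22. Edn1, the main endothelin ligand of Ednrb, was 12.2, 11.4 and 10.97 FPKM in control, 50.9, 11.5 and 15.7 with LPS, 8.45, 4.50 and 8.93 with bLF, and 7.23, 4.99 and 7.97 with LPS+bLF. All 6 libraries with bLF lay below all 6 without it, a pattern shared by 25 genes, 0.182% of those tested, and picked out after the values were seen. Ednrb thus ordered the libraries by LPS and Edn1 by bLF, but both orders were picked out after the values were seen. Such orders were found for 0.109% and 0.182% of tested genes, and the share expected at random is close to the first. Neither gene was called in edgeR. Averaged over LPS, the Edn1 difference for bLF was −1.36 ± 0.39 (edgeR, unadjusted p = 0.00494, adjusted p = 0.953), and −0.78 without LPS replicate 1. Ednra, the A-type receptor, showed differences of −0.05 ± 0.23 for LPS versus control and −0.09 ± 0.17 for bLF averaged over LPS. Ece1, the enzyme that cuts the endothelin precursor, lay at 0.67 ± 0.46 for LPS versus control with all libraries and at −0.28 without LPS replicate 1.

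**Figure D1:**
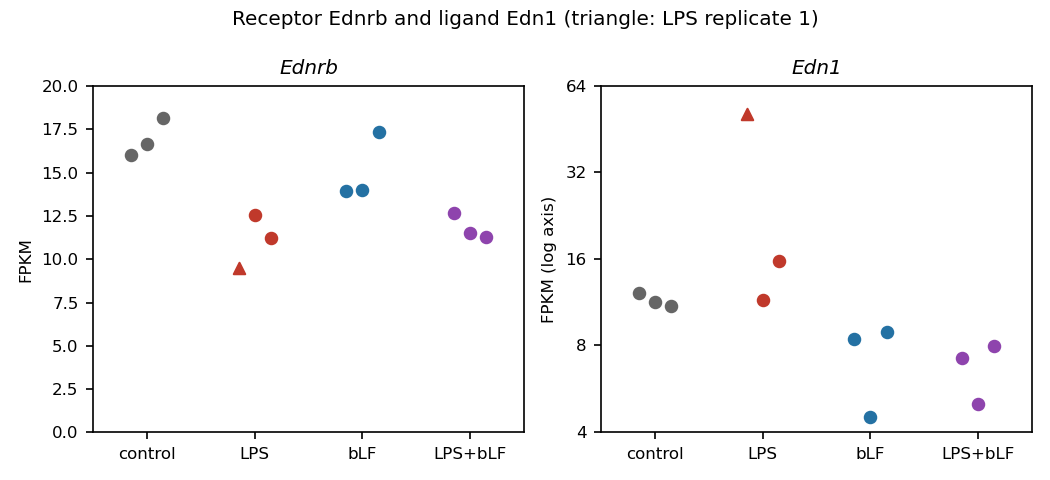
Level of the receptor gene Ednrb (FPKM, linear axis from 0) and of its ligand gene Edn1 (FPKM, log axis) in each library, by treatment group, with LPS replicate 1 as a triangle. Ednrb lay between 9.49 and 12.7 FPKM in libraries with LPS and between 13.9 and 18.2 in those without, and Edn1 lay between 4.50 and 8.93 FPKM with bLF and between 10.97 and 50.9 without.

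Car4, a carbonic anhydrase anchored at the capillary surface that interconverts carbon dioxide and bicarbonate, was 220.5, 253 and 288 FPKM in control and 182, 211 and 224 with LPS. With bLF it was 234, 236 and 279 FPKM, and with LPS+bLF 194, 211 and 235. The groups overlapped, with the highest LPS library above the lowest control library. The difference was −0.25 ± 0.17 for LPS versus control (edgeR, unadjusted p = 0.181) and −0.22 ± 0.12 for LPS averaged over bLF (unadjusted p = 0.0959). Leaving out LPS replicate 1 gave −0.28 and −0.24. Scaled on pan-endothelial genes, the averaged difference was 0.01 ± 0.14, and the median of all tested genes went from −0.01 to 0.21. Such scaling moves all genes by a similar amount, so it cannot show whether Car4 differs from that median.

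A list of 10 other aerocyte genes (Tbx2, Emp2, Prx, Kitl and others) was tested in full. For LPS versus control 9 were lower and 1 was higher, with a median of −0.33 against −0.04 over all genes, and for LPS averaged over bLF the counts were again 9 and 1, with a median of −0.26. None was called, and 54.2% and 51.1% of all tested genes were lower in these comparisons. The shift was not particular to aerocyte genes. For LPS averaged over bLF, 24 of 30 pan-endothelial genes (median −0.25) and 9 of 9 alveolar type 1 genes (median −0.22) were lower too. Kitl, the ligand of the receptor Kit that general capillary cells carry, lay at −0.36 ± 0.15 for LPS versus control (edgeR, unadjusted p = 0.0302, adjusted p = 0.665). The 1 higher gene was Prx, periaxin, at 1.11 ± 0.52, with 189 FPKM in LPS replicate 1 against 35.6 to 65.0 in the other 11 libraries. Of the 10 genes, 6 were at their lowest in LPS replicate 1. Without that library 9 of the 10 were lower for LPS versus control (median −0.30) and 10 for LPS averaged over bLF (median −0.26), with Kitl at −0.35 ± 0.15 and Prx at −0.12 ± 0.18.

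Apln encodes apelin, a secreted peptide that acts on the receptor Aplnr. Apln was 15.5, 12.6 and 15.8 FPKM in control, 5.64, 17.3 and 13.7 with LPS, 12.9, 16.8 and 13.3 with bLF, and 16.04, 9.47 and 15.0 with LPS+bLF. Aplnr was 21.7, 12.8 and 22.5 FPKM in control, 4.15, 24.3 and 18.8 with LPS, 13.7, 15.1 and 17.8 with bLF, and 20.9, 12.4 and 18.4 with LPS+bLF. For both genes the lowest library was LPS replicate 1 and the highest was LPS replicate 2, so that the LPS group spanned all other libraries. The LPS versus control difference was −0.26 ± 0.28 for Apln and −0.28 ± 0.43 for Aplnr, and 0.03 ± 0.20 and 0.14 ± 0.24 without LPS replicate 1. No difference between groups was detectable for either at this spread. Apela, a second ligand of Aplnr, did not pass the filter on low values.

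Kdr, the main signalling receptor for vascular endothelial growth factor A (VEGF-A), was 29.8, 27.7 and 36.4 FPKM in control, 6.17, 29.3 and 30.3 with LPS, 28.0, 20.0 and 29.4 with bLF, and 25.9, 20.2 and 19.0 with LPS+bLF. LPS replicates 2 and 3 lay within the control range, and LPS replicate 1 lay at less than any other library. The LPS versus control difference was −0.53 ± 0.40 (edgeR, unadjusted p = 0.215) with that library and −0.12 ± 0.20 without it. With LPS+bLF all 3 libraries lay below all 3 control libraries, at −0.48 ± 0.40 (unadjusted p = 0.254). Ednrb and Kdr were the 2 of 10 genes with that order in LPS+bLF versus control, where 7.8% of tested genes had it. In LPS versus control and in LPS+bLF versus bLF, Ednrb was the 1 of 10 in that order, against 3.92% and 6.87% of tested genes. These comparisons share control or treated samples.

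Among 14 other genes of the VEGF pathway, 7 were higher and 7 lower for LPS versus control, with a median of 0.03, and none was called. Without LPS replicate 1, 3 were higher and 11 lower, with a median of −0.27. Flt1, the receptor that binds VEGF-A and signals weakly, was 20.2 ± 6.69 FPKM in control and 25.4 ± 16.8 with LPS, where LPS replicate 1 held 44.6 FPKM against 11.8 to 25.7 in the other 11 libraries. Vegfa was 193 ± 38.1 FPKM in control, 136 ± 86.8 with LPS, 179 ± 28.4 with bLF and 148 ± 42.3 with LPS+bLF. In LPS replicate 1 Vegfa was at 35.5 FPKM, below the 111 to 237 of the others, and the placental growth factor gene Pgf was at 130 FPKM, above their 4.85 to 13.0.

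Gpihbp1, which carries lipoprotein lipase across capillary endothelium, was 1702, 1099 and 1250.2 FPKM in control, 2506, 1092 and 884 with LPS, 1346, 1399 and 1583 with bLF, and 1268, 1230.2 and 1855 with LPS+bLF. LPS replicate 1 was the highest library and LPS replicate 3 the lowest, so the LPS group again spanned the rest. The LPS versus control difference was 0.32 ± 0.42 with all libraries and −0.49 ± 0.23 without LPS replicate 1 (adjusted p = 1), and the LPS+bLF versus LPS difference turned from −0.15 ± 0.42 to 0.67 ± 0.23 (adjusted p = 0.516). Both signs thus depended on 1 library. The lipase gene Lpl itself was at 82.2 FPKM in LPS+bLF replicate 2, 58.5 in control replicate 1, 39.9 in LPS replicate 1 and 35.0 in bLF replicate 1, and at 7.62 to 12.2 in the other 8 libraries. All of these but LPS replicate 1 are the libraries with fat and heart transcripts.

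Plvap forms the diaphragms of caveolae and fenestrae. It was 1173, 598 and 1073 FPKM in control, 615, 806 and 705 with LPS, 1084, 1258 and 1120 with bLF, and 1087, 669.9 and 1218 with LPS+bLF. The LPS libraries lay within the control range because control replicate 2 was the lowest of all 12. Differences were −0.35 ± 0.25 for LPS versus control, 0.48 ± 0.25 for LPS+bLF versus LPS and 0.33 ± 0.25 for bLF versus control. For bLF averaged over LPS it was 0.40 ± 0.18 (edgeR, unadjusted p = 0.0459, adjusted p = 0.953), and 0.41 ± 0.18 without LPS replicate 1. Plvap was the only 1 of the 10 genes with an unadjusted p under 0.05 in that comparison, in which 4.74% of all tested genes had one.

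A list of 10 other general capillary genes (Cxcl12, Lpl, Kit, Cd36 and others) split evenly for LPS versus control, with 5 higher and 5 lower with and without LPS replicate 1 (median 0.04 and −0.06). For bLF averaged over LPS 9 were lower and 1 higher, with a median of −0.29 against −0.02 over all genes, and none was called. When LPS replicate 1 was omitted, 8 were lower, also with a median of −0.29. Gpihbp1, Plvap and Aplnr lay at 0.00 ± 0.29, 0.40 ± 0.18 and −0.03 ± 0.30 in the same comparison. Without LPS replicate 1 they lay at 0.41 ± 0.15, 0.41 ± 0.18 and −0.24 ± 0.16. Gpihbp1 and Plvap thus did not share the sign of most of that list beyond their error. Aplnr had that sign, by more than 1 SE only without LPS replicate 1. Among 12 lipoprotein and caveola genes (Cd36, Fabp4, Cav1 and others), 9 were lower for LPS versus control, with a median of −0.24, and 10 without LPS replicate 1, with a median of −0.20. The summed level of this list was 9547 FPKM in control replicate 1, a library with fat transcripts, and 945 and 1372 in the other control libraries. Cav2, a caveolin, lay at −0.57 ± 0.22 and the fatty acid transporter Cd36 at −0.62 ± 0.28, and at −0.38 ± 0.19 and −0.38 ± 0.25 without LPS replicate 1.

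Vwf, the clotting factor stored in Weibel-Palade bodies, was 35.1, 21.1 and 36.4 FPKM in control, 86.6, 30.4 and 26.3 with LPS, 34.7, 36.1 and 31.6 with bLF, and 31.8, 21.8 and 34.1 with LPS+bLF. Cldn5, the main claudin of endothelial tight junctions, was 597, 489 and 591 FPKM in control, 1349, 512 and 553 with LPS, 549, 623 and 711 with bLF, and 574, 479 and 663 with LPS+bLF. Nos3, the endothelial nitric oxide synthase, was 15.0, 6.19 and 9.78 FPKM in control, 28.0, 9.61 and 8.81 with LPS, 13.5, 10.9 and 9.75 with bLF, and 9.57, 13.6 and 8.51 with LPS+bLF. For all 3 genes LPS replicate 1 was the highest library, at more than any of the other 11, and LPS replicates 2 and 3 lay within the control range. With all libraries the LPS versus control difference was 0.79 ± 0.45 for Vwf, 0.68 ± 0.40 for Cldn5 and 0.75 ± 0.48 for Nos3 (edgeR, unadjusted p = 0.11, 0.114 and 0.148). Without LPS replicate 1 the differences were −0.16 ± 0.21, −0.11 ± 0.18 and −0.19 ± 0.30. The reverse held for LPS+bLF versus LPS, where −0.80, −0.59 and −0.64 became 0.16, 0.20 and 0.31.

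Vwf is also made by megakaryocytes and carried by platelets. The platelet gene Pf4 was 131 ± 22.7 FPKM in control, 124 ± 42.0 with LPS, 191 ± 84.6 with bLF and 130.0 ± 22.8 with LPS+bLF (SD, n = 3 each). The summed level of 11 platelet genes was 145.9 to 191.1 FPKM in control and 104.9 to 198.9 with LPS. Among 9 tested genes of Weibel-Palade bodies and their release, 5 were higher and 4 lower for LPS versus control, led by Edn1 and by the granule protein gene Cd63 at 1.18 ± 0.46, and none was called. In the fit that lacked LPS replicate 1, the counts were again 5 and 4, and Cd63 lay at 0.18 ± 0.18. Among 12 other junction genes 7 were lower, with a median of −0.22, and 7 were at their lowest in LPS replicate 1, without which 9 were lower with a median of −0.06. Of 15 genes of nitric oxide synthesis and cyclic GMP signalling, 10 were lower with and without that library, with medians of −0.11 and −0.06. The annotation places Atg9b on the opposite strand over part of Nos3, at 0.05 to 0.67 FPKM, and Gtpbp3 over part of Plvap, at 1.81 to 6.06 FPKM. The strand setting of the counting is not given in the sources used here.

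**Figure D2:**
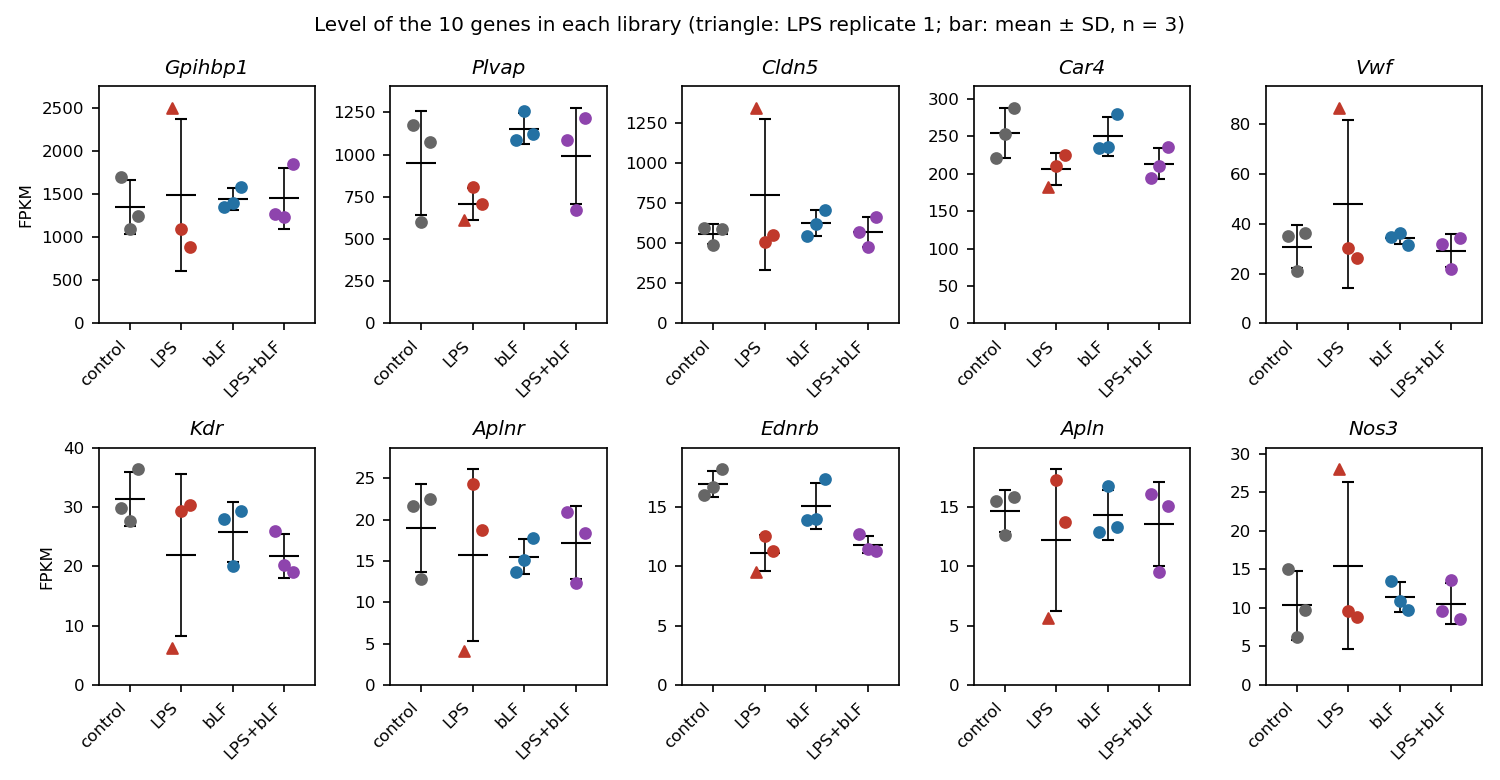
FPKM of each of the 10 genes in the 12 libraries, by treatment group, on linear axes from 0, with LPS replicate 1 as a triangle and bars for the group mean ± SD (n = 3). LPS replicate 1 was the lowest point for Kdr, Aplnr, Apln, Ednrb and Car4 and the highest for Gpihbp1, Cldn5, Vwf and Nos3, while for Ednrb the other LPS libraries were low as well.

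LPS replicate 1 thus split the 10 genes. Relative to the median of the other 11 libraries, on the log2(FPKM + 1) scale, it lay at −2.02 for Kdr, −1.91 for Aplnr, −1.27 for Apln, −0.82 for Plvap, −0.51 for Ednrb and −0.36 for Car4. It lay at 0.98 for Gpihbp1, 1.23 for Cldn5, 1.42 for Vwf and 1.43 for Nos3. By FPKM, 5 of the 10 genes were the lowest and 4 the highest of the 12 libraries there, beside 43.6% and 18.8% of all genes tested. These FPKM do not include the TMM factor, which was 0.854 in this library and 0.923 to 1.092 in the others. On the TMM-normalised CPM scale Car4 was at 231 there and not the lowest, with 215 in control replicate 1, 205 in LPS replicate 2 and 200 in LPS+bLF replicate 1. Kdr, Aplnr, Apln and Ednrb remained the lowest in LPS replicate 1 on that scale. In that library 6 genes deviated by more than 1, and in each of the other 11 libraries 0 did. The median absolute deviation of the 10 genes was 1.25 there and 0.105 to 0.448 in the others, with LPS+bLF replicate 2 the next.

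Ratios between endothelial genes also set this library apart. The FPKM ratio of Vwf to Kdr was 14.0 in LPS replicate 1 and 0.762 to 1.80 in the others. Flt1 to Kdr, the ratio of both VEGF-A receptors, was 7.24 against 0.462 to 0.961, and Gpihbp1 to Aplnr, both general capillary genes, was 604 against 45 to 101. Cldn5 to Cdh5, the tight junction claudin over the adherens junction cadherin, was 47.8 against 4.35 to 13.8. The ratio of Car4 to Ednrb, both aerocyte genes, was 19.2 and lay within the 13.8 to 20.8 of the others. Genes of the same subset therefore lay on opposite sides in this library, as Gpihbp1 and Aplnr did. Across the 30 pan-endothelial genes, 12 were below and 5 above all other libraries, with Cdh5 at 28.2 FPKM against 48.0 to 136 and Tie1 at 193 against 76.8 to 154. Neutrophil genes were high in the same library, with a summed level of 1633 FPKM against 192 to 625 in the other 11. It was also the lowest of the 12 for the summed level of lymphocyte and NK cell genes (47.5 FPKM against 129 to 589) and of alveolar type 2 genes (46930.0 against 64650.0 to 179100.0). For alveolar type 1 genes it had the lowest mean log2 difference from control, at −0.82. Their summed level, however, was 6727 FPKM there, within the 4465 to 9179 of the other libraries. Gene length and GC content had Spearman correlations of 0.03 each with the deviation of this library across genes, over 97.6% of genes tested, given as a description since genes are not independent replicates. The part of RNA quality or cell makeup in this pattern was not tested.

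**Figure D3:**
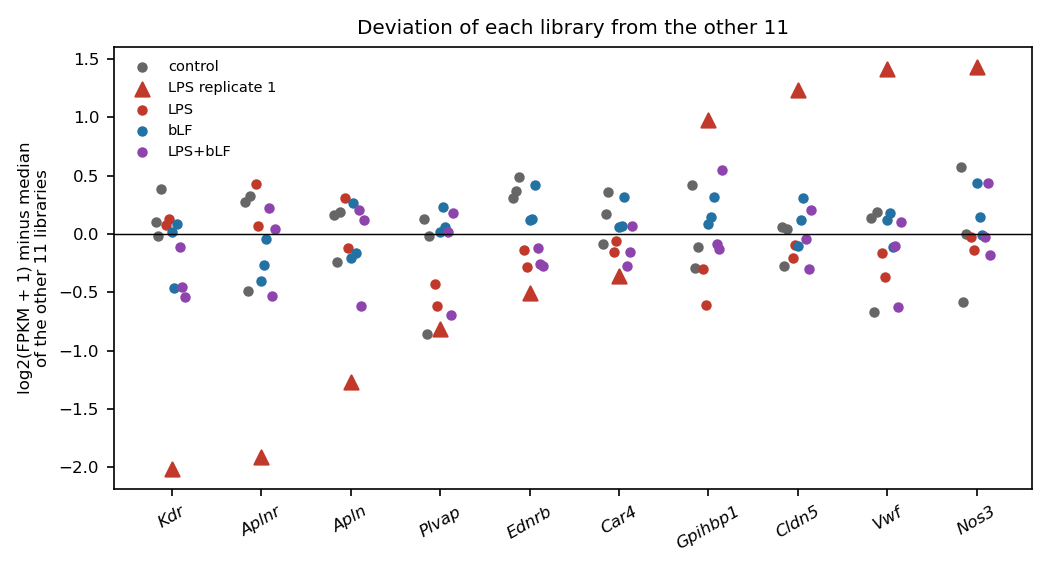
Difference of each library from the median of the other 11 libraries, in log2(FPKM + 1), for the 10 genes ordered by their value in LPS replicate 1 (triangles). LPS replicate 1 ran from −2.02 for Kdr to 1.43 for Nos3, and no other library deviated by more than 1 for any of the 10 genes.

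Over the 10 genes together, 6 were lower and 4 higher for LPS versus control, with a median of −0.25 against −0.04 for all tested genes, of which 54.2% were lower. Without LPS replicate 1, 8 were lower for LPS versus control, with a median of −0.18 against −0.04 for all genes (57.9% lower), and 9 for LPS averaged over bLF, with −0.17 against −0.01 (53% lower). With all libraries, for LPS+bLF versus LPS 4 were lower with a median of 0.04, for bLF versus control 5 with 0.07, for LPS+bLF versus control 6 with −0.04, and for the interaction 4 with 0.10. Scaling on the pan-endothelial genes moved the median of all genes from 0.00 to 0.29 for LPS+bLF versus control, where it left 2 of the 10 genes lower in place of 6. For LPS averaged over bLF it left 3 lower in place of 6. For LPS versus control the count of 6 was the same under both scalings. For LPS+bLF versus LPS the count of 4 was also the same. The 3 genes lower for LPS averaged over bLF under the pan-endothelial scaling were Ednrb, Kdr and Plvap, at −0.24, −0.17 and −0.07.

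**Figure D4:**
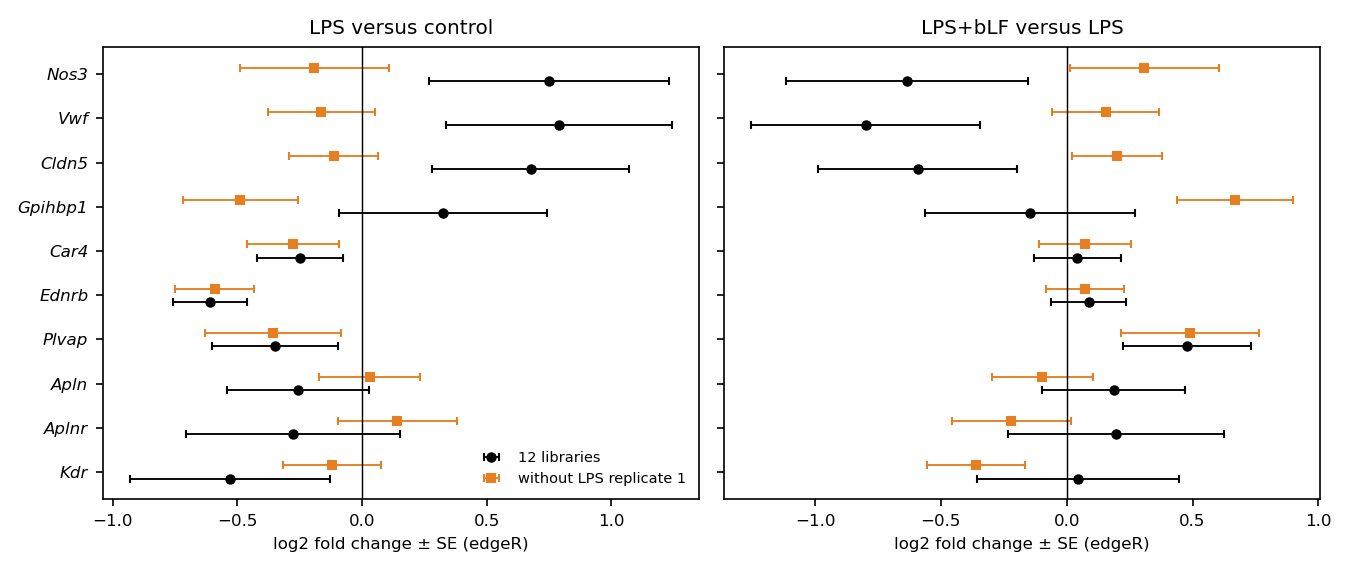
Log2 fold change ± SE from edgeR for the 10 genes, for LPS versus control (left) and LPS+bLF versus LPS (right), with all 12 libraries (black circles) and without LPS replicate 1 (orange squares). Vwf, Cldn5, Nos3, Gpihbp1, Apln and Aplnr changed sign in both comparisons without that library, and Kdr did for LPS+bLF versus LPS. Ednrb stayed at −0.61 and −0.59 for LPS versus control.

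By level per length, the order of mean FPKM over the 12 libraries was Gpihbp1 (1430.0 ± 433, SD), Plvap (951 ± 251), Cldn5 (641 ± 233), Car4 (231 ± 31.4), Vwf (35.5 ± 16.9), Kdr (25.2 ± 7.83), Aplnr (16.9 ± 5.60), Ednrb (13.7 ± 2.76), Apln (13.7 ± 3.33) and Nos3 (11.9 ± 5.64). Gpihbp1 exceeded Plvap, Cldn5 exceeded Car4, Car4 exceeded Vwf and Kdr exceeded Aplnr in 12 of 12 libraries. Plvap exceeded Cldn5 in 11. Vwf and Kdr, Aplnr and Ednrb, and Apln and Nos3 kept their order in 9 of 12 libraries, and Ednrb and Apln in 7, so these neighbours were not separated beyond their spread. Gpihbp1 ranked above 99.5% of the listed genes and Nos3 above 70.1%. Counts behind these levels ran from 232 for Aplnr in its lowest library to 39016 for Plvap in its highest, well above the limit of 3 counts.

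Car4 varied least, with a coefficient of variation of 13.6% over 12 libraries and 12.3% over the 11 without LPS replicate 1. Vwf and Nos3 varied most over 12, at 47.7% and 47.2%, and at 17.8% and 24.8% over 11. Cldn5 went from 36.4% to 12.4%. The spread of these 3 genes was thus smaller without 1 library.

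Likeness between genes was measured as Pearson's r of log2(FPKM + 1) over the libraries, which come from the same 12 lungs at similar depth, and is given as a description. Car4 and Ednrb had r = 0.812 over 12 libraries and 0.736 over 11. Apln and Aplnr, ligand and receptor of different cell types, had 0.935 and 0.760. Vwf and Cldn5 had 0.928 and 0.70. Other pairs turned on LPS replicate 1: Kdr and Cldn5 had −0.822 over 12 libraries and −0.047 over 11, and Plvap and Vwf had 0.055 and 0.933. Over 11 libraries Plvap also went with Cldn5 (0.816) and with Gpihbp1 (0.762). Among 12261 genes of at least 1 FPKM on average, the gene most like Car4 was Rcsd1 over 12 and over 11 libraries, the gene most like Plvap was Notch1 both times (0.967 and 0.959), and the gene most like Cldn5 was Hras both times (0.965 and 0.886). For Ednrb it was Wee1 over 12 (0.919) and Plcb4 over 11 (0.946), and for Vwf it was Adgrl3 (0.986) and then Robo4 (0.956), an endothelial guidance receptor. For the other 5 genes the most alike gene also differed between both sets of libraries.

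Lists of other vessel types set the 10 genes in context. Of 30 pan-endothelial genes, 21 were lower for LPS versus control (median −0.22) and 24 for LPS averaged over bLF (median −0.25), and none was called. With LPS replicate 1 left out, the counts were 26 and 27, with medians of −0.18 and −0.23. The pan-endothelial genes with the lowest unadjusted p for LPS versus control in edgeR were Eng and Tie1. Eng, a co-receptor for TGF-beta family ligands, lay at −0.56 ± 0.23, and at −0.38 ± 0.19 without LPS replicate 1. The receptor tyrosine kinase gene Tie1 lay at 0.58 ± 0.28, and at 0.20 ± 0.22 without that library. Of 10 tested vein genes, 8 were higher (median 0.44), and 5 were higher without LPS replicate 1 (median 0.07). With all libraries they were led by the noradrenaline transporter gene Slc6a2 at 2.33 ± 0.92, which was at 20.3 FPKM in LPS replicate 1 and 1.15 to 2.53 elsewhere, and its difference was −0.49 ± 0.19 without that library. Of 11 tested artery genes, 7 were lower (median −0.03), with the Notch ligand gene Dll4 at −0.94 ± 0.34. Without LPS replicate 1, 6 artery genes were lower (median −0.11) and Dll4 lay at −0.66 ± 0.31. Of 6 tested lymphatic genes, 3 were higher and 3 lower (median −0.02), and 4 were lower without that library (median −0.10). Vwf, shared by veins and arteries, lay at 0.79 ± 0.45 for LPS versus control with all libraries, and at −0.16 ± 0.21 without LPS replicate 1.

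**Figure D5:**
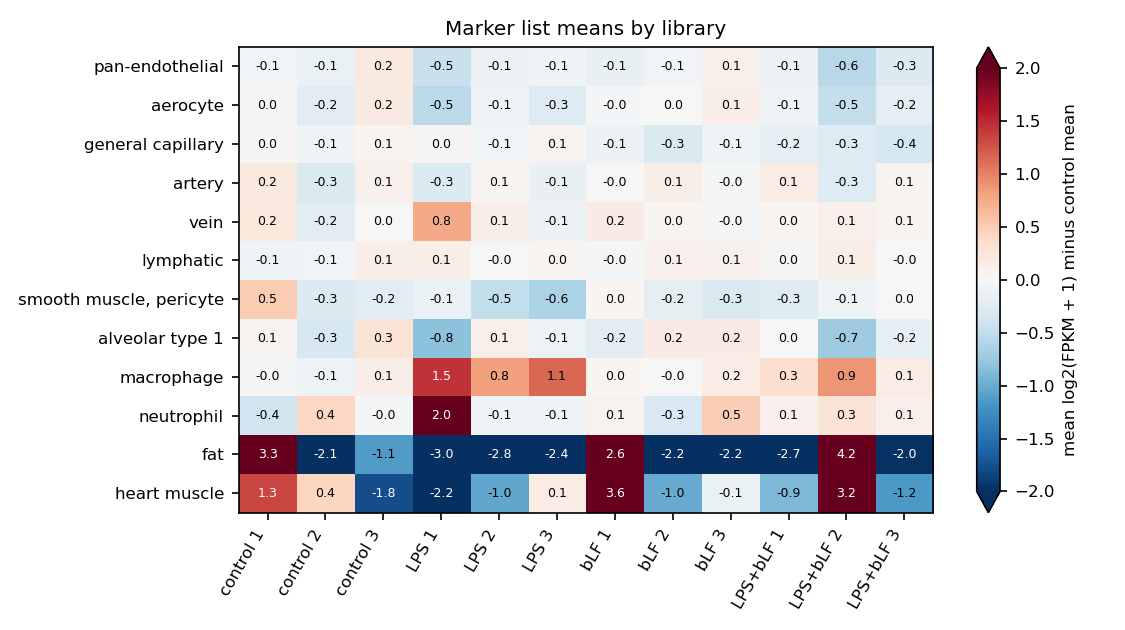
Mean difference of each marker list from the control mean, in log2(FPKM + 1), for the 12 libraries (columns) and 12 lists (rows), coloured from blue (lower) to red (higher) and cut at 2 in either direction. The pan-endothelial mean was lowest in LPS+bLF replicate 2 and LPS replicate 1, at −0.55 and −0.45, and macrophage genes were higher in each of the 3 LPS libraries, from 0.82 to 1.45.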

How the data were processed

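RNA-seq of polyadenylated lung RNA gave 12 libraries, 3 per group, each from a separate mouse per the labels' protocols. Per the submitters' processing notes, the authors used HISAT2 2.1.0, RSEM 1.2.8 and the genome build mm10. The roles and order of these tools, the annotation and the strand setting are not given in the sources used here. Per the file headers, each deposited file lists a count and an FPKM for every gene. The deposited counts were taken as RSEM-style expected counts, because 4.12 to 5.91% of genes per library had a count that was not whole, and the FPKM are the authors' values.

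Expected counts were rounded. Testing was limited to genes that reached 0.5 FPKM in 3 or more libraries. Libraries were scaled with TMM factors, and 1 quasi-likelihood fit of 4 group means (8 residual degrees of freedom, edgeR 4.0.16 in R 4.3.3) gave all comparisons. Tests were two-sided, p-values were adjusted by the Benjamini-Hochberg method over all tested genes within a comparison, and a gene was called at an adjusted p under 0.05. SEs were derived from the quasi-likelihood F statistic. Limma 3.58.1 and DESeq2 1.42.0 were alternatives. The main edgeR fit was checked on simulated data with less spread between libraries than these data and no library set apart. That check therefore does not show how often true changes are missed or false ones called here. Of the 17920 genes, 17869 matched the RefSeq table by ID. Beside the 10 genes, the 2 genes of each list with the lowest unadjusted p for LPS versus control could be named, and for each of the 10 genes the gene most like it; other genes were named after their values were seen. LPS+bLF versus bLF, and each agent averaged over the other, were added after seeing the data. The 10 genes and the lists were chosen with earlier results of these data known. FPKM are compared between genes because they are scaled to length, and intervals from 3 mice are wide.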

Additional observations from a re-analysis of the deposited data

Results flagged for a closer look

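The Kdr difference for bLF pointed in opposite directions with and without LPS on the mean log2(FPKM + 1) scale, at −0.28 without LPS and 0.25 with it, a gap of 0.53 (bLF versus control, and LPS+bLF versus LPS). Once LPS replicate 1 was left out, the second value was −0.45, on the same side as the first. Vwf showed the reverse, at 0.18 without LPS and −0.51 with it, a gap of −0.68, and the second value was 0.02 without LPS replicate 1. In edgeR's quasi-likelihood test the interaction was 0.30 ± 0.57 for Kdr (unadjusted p = 0.607, adjusted p = 1) and −0.98 ± 0.64 for Vwf (unadjusted p = 0.152, adjusted p = 1).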

How the results depend on the processing

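The count of genes called was 0 in every comparison in the main edgeR fit, with TMM scaling and all libraries. DESeq2 called 138 genes for LPS versus control, 7 for LPS+bLF versus LPS, 1 for bLF versus control, 12 for LPS+bLF versus control, 1 for the interaction, 2 for LPS+bLF versus bLF, 138 for LPS averaged over bLF and 2 for bLF averaged over LPS. Limma on log2(FPKM + 1) called 2 for LPS versus control and 3 for LPS averaged over bLF, and with a pseudocount of 0.1 it called 4 for the latter. Scaling on pan-endothelial genes gave 33 there. With 1 library left out in turn, the counts ran from 0 to 25 for LPS versus control, 0 to 2 for LPS+bLF versus LPS, 0 to 44 for LPS averaged over bLF and 0 to 1 for bLF averaged over LPS. The highest count came without LPS replicate 1 in the first 3 of these and without bLF replicate 3 in the last. The cause of these changes was not tested.

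Replicate numbers recur in each group. Libraries with the same number had correlations of −0.709 to 0.576 between their deviations from the group means over 18 pairs, and 2 of 12 libraries were closest to their own number, so the numbers were not used as pairs. With the replicate number as a block, 0 genes were called in each comparison.

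Of the single-gene values under alternatives, 1404 kept their side of the threshold and did not turn in direction by more than 1 SE, 2 crossed the threshold (Ednrb under DESeq2) and 24 turned by more than that. Car4 scaled on pan-endothelial genes turned to 0.10 for LPS+bLF versus control, 0.084 for LPS+bLF versus bLF and 0.008 for LPS averaged over bLF. The other turns all came without LPS replicate 1. With each library left out in turn, log2 differences had the following lowest and highest values. For LPS versus control they were −0.51 to 0.03 for Apln, −0.49 to 0.65 for Gpihbp1, −0.16 to 1.14 for Vwf, −0.11 to 0.98 for Cldn5 and −0.19 to 1.09 for Nos3. For LPS+bLF versus LPS they were −0.36 to 0.35 for Kdr, −0.50 to 0.67 for Gpihbp1, −1.17 to 0.15 for Vwf, −0.89 to 0.20 for Cldn5 and −0.99 to 0.31 for Nos3. For the interaction of LPS and bLF they were −0.62 to 0.53 for Gpihbp1, −1.09 to 0.008 for Cldn5 and −1.17 to 0.12 for Nos3. For LPS averaged over bLF they were −0.22 to 0.34 for Gpihbp1, −0.18 to 0.47 for Vwf, −0.11 to 0.43 for Cldn5 and −0.13 to 0.51 for Nos3. For bLF averaged over LPS they were −0.19 to 0.41 for Gpihbp1, −0.50 to 0.17 for Vwf, −0.36 to 0.20 for Cldn5 and −0.41 to 0.25 for Nos3.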

Other observations

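Lrg1, a secreted glycoprotein of activated endothelium and other cells that acts on TGF-beta signalling in vessels, was 90.9 ± 45.4 FPKM in control, 266 ± 108 with LPS, 101 ± 12.5 with bLF and 182 ± 31.4 with LPS+bLF (SD, n = 3 each). All 6 libraries with LPS, from 146 to 390 FPKM, lay above all 6 without, from 50.2 to 140. This order was found for 68 genes, 0.495% of those tested, and Lrg1 was picked out for it after its values were seen. The log2 difference was 1.71 ± 0.40 for LPS versus control (edgeR, unadjusted p = 0.00124, adjusted p = 0.243) and 1.15 without LPS replicate 1. Averaged over bLF it was 1.29 ± 0.28 (adjusted p = 0.182). Among 12 tested genes of endothelial activation, 6 were higher and 6 lower for LPS versus control, with a median of 0.10, and none was called, and the counts were the same without LPS replicate 1 (median 0.07). The chemokine gene Cx3cl1 lay at −0.93 ± 0.29, and at −0.63 ± 0.21 without that library. Of 19 endothelial transcription factor genes, 10 were lower, with a median of −0.11 and with Foxf1, a factor needed for lung capillaries, at −0.67 ± 0.25. Leaving out LPS replicate 1, 14 were lower, again with a median of −0.11, and Foxf1 lay at −0.47 ± 0.23.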
